A study of Mus musculus with 10 samples.

Results

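Gene expression was compared between Neuro2a cells given a dCas9 repressor directed at SCN9A (dCas9-SCN9A, 3 libraries) and cells given dCas9-empty, its control (3 libraries). The members are these 6 libraries of the 10 in the series, chosen by their labels, with every mouse gene identifier in the unstranded count column. The other 4 libraries form a separate arm, with a zinc-finger protein directed at SCN9A (ZF-SCN9A, 2 libraries) and mCherry (2 libraries), and are used here only where the change in that arm is set beside the dCas9 change. All cells carried the genotype label wild-type. Per the labels' protocols, plasmids were delivered at 0.5 µg each with 2 µL of Lipofectamine 2000 in 24-well plates, the medium was changed after 24 h and the cells were kept for 72 h. All libraries therefore come from transfected cells, and the series holds no untransfected library here. What dCas9-empty lacks, which repressor domain was used, where on the DNA the complex binds and whether replicates were separate cultures are stated in none of the labels. P-values therefore reflect only how far these libraries vary, and that variation may be technical.

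dCas9 is a Cas9 protein whose nuclease sites have been inactivated, so that a guide RNA brings it to a DNA site without a cut. Placed at a promoter, alone or joined to a repressor domain, it lowers transcription of the gene. Scn9a encodes NaV1.7, a voltage-gated sodium channel that amplifies small depolarisations in pain-sensing neurons, and loss of the channel in people abolishes pain. Neuro2a is a mouse neuroblastoma line, derived from the sympathoadrenal branch of the neural crest, which divides in culture and keeps a neuron-like gene programme.

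Levels are given in CPM, the usual count of a gene's reads scaled to a common library size, adjusted between libraries by edgeR's TMM method. Plain CPM, used for marker sums and plasmid entries, leaves out that adjustment. Log2 fold changes are dCas9-SCN9A against dCas9-empty, so a negative value is lower with the repressor. A gene is called when its Benjamini-Hochberg adjusted p, over all 14628 tested genes, is under 0.05 in edgeR's quasi-likelihood test. The dCas9-empty libraries held 17770383 to 18984566 gene counts and the dCas9-SCN9A libraries 15356843 to 16351528. Markers of the labelled cell line were present in every library: the sympathoadrenal factor Hand2 had 6592 to 8164 reads and the catecholamine enzyme Th 517 to 699, while Pnmt, which makes adrenaline, had 0. Markers of glia summed to 73.5 to 79.5 plain CPM, and those of immune and endothelial cells to 83.0 to 97.6, with the groups overlapping in both.

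One set of genes set libraries apart across both groups. Genes characteristic of hepatocytes, the main cells of the liver, were present in all 6 dCas9 libraries and were highest in replicate 1 of each group. Alb, which encodes serum albumin, had 1685, 470 and 550 reads in dCas9-empty replicates 1 to 3, and 1218, 325 and 366 in dCas9-SCN9A. The same gene had 0 reads in all 4 libraries of the zinc-finger arm. Over 30 hepatocyte markers, a list chosen after their values were seen, the summed level was 220, 58.7 and 72.8 plain CPM in dCas9-empty and 209, 57.1 and 67.1 in dCas9-SCN9A. In the zinc-finger arm it was 3.48 to 4.08. None of the 30 was at 0 throughout the dCas9 libraries, and 0 of the 27 tested were called. Genes with at least 100 reads that were at least 2-fold higher in replicate 1 of both groups than in each of the other 4 libraries numbered 26. They include 16 of the 30 markers, and also Dmd, which encodes dystrophin, with 302, 100 and 134 reads against 300, 71 and 96, and the fibrillar collagen Col3a1 with 67, 1 and 0 against 76, 0 and 0. The same rule applied to replicate 2 or replicate 3 found 0 genes. Without replicate 1 of either group, a choice made after seeing the data, 14 genes were called instead of 6, with 5 higher and 9 lower, and 5 of the 6 were among them.

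**Figure D1:**
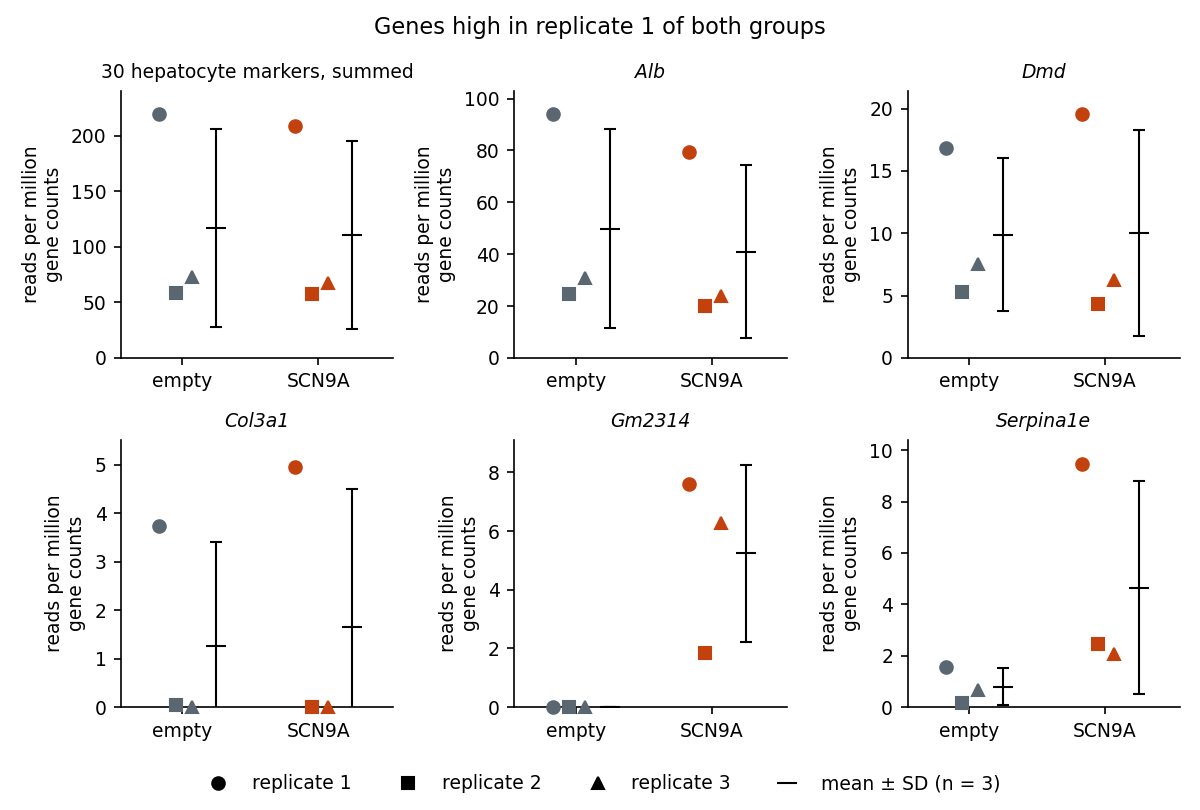
Plain CPM (vertical axes) in each dCas9-empty and dCas9-SCN9A library for the sum of 30 hepatocyte markers and for 5 genes, with the mean ± SD of 3 libraries beside the points, SD bars being drawn only down to 0. Replicate 1 (circles) is highest of its group for the marker sum, Alb and Dmd in both groups, while Col3a1 is at or near 0 in the other libraries and Gm2314 at 0 in dCas9-empty.

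Some genes of few reads differed between the groups and varied widely within them. The pseudogene Gm2314 had 0, 0 and 0 reads against 117, 30 and 97, at least 31.8-fold higher with a floor of 3 reads per library, for counting error only. Serpina1e, an alpha-1-antitrypsin gene, had 28, 3 and 12 reads against 145, 40 and 32. Its near-identical paralogs could share those reads. Neither passed the edgeR test across all genes (adjusted p = 0.295 for Gm2314, adjusted p = 0.521 for Serpina1e). In dCas9-SCN9A replicate 1 had the most reads of both, with Gm2314 nearly as high in replicate 3. Gm43333, highest in replicate 3 of both groups, stood at 10, 1 and 403 reads in dCas9-SCN9A and 0, 2 and 21 in dCas9-empty, and without dCas9-SCN9A replicate 3 its log2 fold change was -0.27 instead of 4.34.

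The first question was how far the targeted gene fell. The 250 bases before the annotated start of Scn9a are shown because a CRISPR repressor acts at such a window, although the position bound here is not given. They come from RefSeq (GRCm38.p6), chr2:66634963-66635212, minus strand, 5′ to 3′ in the direction of the gene. Capitals mark GG, and CC, which is GG on the other strand, the fixed bases of the motif NGG beside which the widely used Cas9 of Streptococcus pyogenes binds. The labels do not name the species of this dCas9.
Scn9a upstream window: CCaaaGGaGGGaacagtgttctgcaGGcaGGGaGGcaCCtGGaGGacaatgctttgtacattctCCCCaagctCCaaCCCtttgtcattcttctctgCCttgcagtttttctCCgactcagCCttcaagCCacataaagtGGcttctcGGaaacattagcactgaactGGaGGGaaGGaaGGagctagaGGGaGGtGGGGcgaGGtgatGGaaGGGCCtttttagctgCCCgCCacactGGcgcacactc
NGG occurs 43 times in this window, 27 times on the strand shown and 16 times on the other, overlapping matches included. Windows of the same length before all 32851 listed promoters hold a median of 40 such matches, 99.99% of them hold at least 1, and 43.4% hold at least as many as Scn9a.

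Scn9a (ENSMUSG00000075316, chromosome 2, minus strand, 66480080 to 66634962 in GRCm38) had 1338, 1519 and 1389 reads in dCas9-empty and 479, 498 and 445 in dCas9-SCN9A. In CPM these were 75.3, 81.1 and 78.3 against 31.0, 30.9 and 28.2. The 3 repressor libraries lay close together and far below every control library. Scn9a fell to 38.4% of control (95% interval of the fit 34.8% to 42.3%), a log2 fold change of -1.38 ± 0.07 (SE, edgeR adjusted p = 2.24e-09). The exact two-sided permutation test over the 6 libraries gave p = 0.1, the smallest that 20 permutations allow. It remained called in all 19 alternative settings that gave it an adjusted p, with log2 fold changes from -1.51 to -1.25. Per kilobase of exon, Scn9a stood in dCas9-empty at 6.12 RPKM (CPM per kilobase of exon), below the auxiliary subunit Scn3b (11.7) and above Scn8a (4.64). In dCas9-SCN9A, at 2.35, it lay below Scn8a (4.72) and near Scn3a (2.15). Gm13629, an antisense gene, shares 1.41% of the exon bases of Scn9a. Less RNA in every cell cannot be told apart from loss in a share of the cells.

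Of the other 8 tested sodium channel genes 0 were called, beside 0.041% of all tested genes. Scn3a, the neighbouring embryonic channel NaV1.3, stood at 31.3, 30.5 and 32.0 CPM against 28.4, 25.6 and 26.4, a log2 fold change of -0.22 ± 0.08 (SE, unadjusted p = 0.00874, edgeR adjusted p = 0.334). Its groups did not overlap. The brain channels Scn2a, Scn1a and Scn8a had log2 fold changes of 0.0033, -0.02 and 0.03, the subunit Scn3b -0.04, and the low-level Scn7a and Scn4a 0.36 and 0.01. The libraries of both groups overlapped in each of these 6. Within 5 Mb of Scn9a, 47 other genes were tested and 0 were called. Unadjusted p was under 0.05 for 1 higher and 6 lower of them, and their median log2 fold change was 0.01, the same to 2 decimals as the median of all genes. In a list of close neighbours 9 of 13 tested genes were negative, with a median of -0.08, and -0.06 after a correction for exon length. Of these, 4 had an unadjusted p under 0.05, all lower. Besides Scn3a, Csrnp3, a nuclear protein gene, stood at -0.17 and the glycosyltransferase gene B3galt1 at -0.15. After the length correction Scn3a stood at -0.14, Csrnp3 at -0.09 and B3galt1 at -0.13. Their unadjusted p by edgeR's quasi-likelihood test was then 0.058, 0.183 and 0.0361.

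In all, 6 of 14628 genes were called (0.041%), 5 higher (0.0342%) and 1 lower (0.00684%). An unadjusted p under 0.05 was reached by 1476 genes (10.1%), of which 610 were higher (4.17%) and 866 lower (5.92%). The groups were fully separated in 2288 genes (15.6%), with 951 higher (6.5%) and 1337 lower (9.14%), and 51.7% of all genes had a log2 fold change above 0. The excess of lower genes depended on the scaling. With plain library sizes in place of TMM, 751 were higher and 578 lower at that same threshold. In simulated counts with the same depths, 97 of 100 genes changed 1.5-fold and 100 of 100 genes changed 2-fold were called, with 6 false calls over 14464 genes. The changed genes were drawn only from genes of higher counts, and every gene was given the same spread between libraries. No trend with exon length and no genes high in single replicates were put in. Recovery of genes with few reads or a wider spread was therefore not tested.

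The 5 called increases were a small protein-coding gene, 2 long noncoding RNAs, a small nucleolar RNA and a mitochondrial messenger RNA. 1600002K03Rik, named Fam174c in RefSeq, lies on chromosome 10 (80172944 to 80175146, plus strand) and encodes a predicted membrane protein. It had 134, 183 and 185 reads in dCas9-empty and 251, 275 and 326 in dCas9-SCN9A, or 7.54, 9.77 and 10.4 CPM against 16.2, 17.0 and 20.7. Every repressor library was above every control library, and the gene rose 1.94-fold (log2 0.96 ± 0.13, SE, edgeR adjusted p = 0.00698). Gm45833, a long intergenic noncoding RNA on chromosome 8 (121666814 to 121674088, minus strand), had 184, 187 and 200 reads against 247, 280 and 314. It rose 1.69-fold, again without overlap (log2 0.75 ± 0.11, adjusted p = 0.00955). Gm44386, another on chromosome 6 (86513891 to 86516273, minus strand), had only 17, 34 and 38 reads against 62, 75 and 90, without overlap. It rose 2.91-fold with a wide 95% interval of 2.00 to 4.25 (adjusted p = 0.0455).

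Snora17 is an H/ACA small nucleolar RNA, a class that carries an ACA triplet near its 3′ end and guides the change of uridine to pseudouridine. Its annotated transcript is shown because its short length bears on the exon-length pattern described further on. It lies at chr2:26639190-26639321 (GRCm38, minus strand), inside the host gene Snhg7 of RefSeq. Capitals mark the ACA triplet, searched on the transcript strand in the last 7 bases, where 46% of 1507 annotated small nucleolar RNAs hold one.
Snora17: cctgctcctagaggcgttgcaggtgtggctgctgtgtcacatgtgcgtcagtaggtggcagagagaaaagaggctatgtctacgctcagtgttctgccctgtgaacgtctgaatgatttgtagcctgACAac
Snora17 had 48, 49 and 61 reads in dCas9-empty and 92, 121 and 166 in dCas9-SCN9A, so that its groups did not overlap. It rose 2.74-fold (log2 1.45 ± 0.21, SE, edgeR adjusted p = 0.00955). Of 9 tested small nucleolar RNAs that carry a symbol of that class, 2 had an unadjusted p under 0.05, both higher, and the median log2 fold change was 0.65, or 0.30 after the correction for exon length. Leaving out replicate 1 of dCas9-empty gave a median of 0.16, and leaving out its replicate 3 a median of 0.87. Over all 27 tested genes annotated as small nucleolar RNAs it was 0.20, and -0.09 after the length correction, with 2 higher and 0 lower. mt-Co3, subunit 3 of cytochrome c oxidase, rose from 12.2, 15.0 and 15.7 CPM to 24.1, 19.6 and 26.5 (log2 0.71 ± 0.12, adjusted p = 0.0498).

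**Figure D2:**
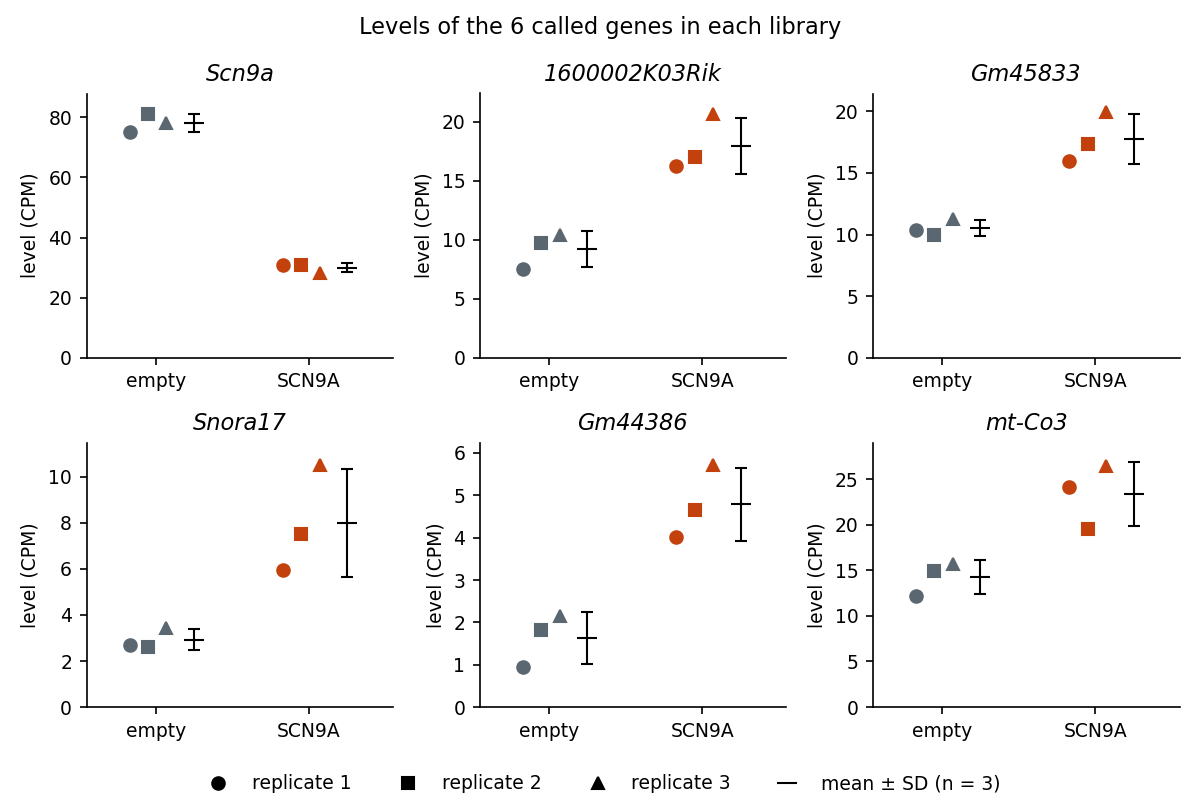
Level in CPM (vertical axes, from 0) of the 6 called genes in each dCas9-empty and dCas9-SCN9A library, with the mean ± SD of 3 libraries. Scn9a lies lower in all 3 repressor libraries and the other 5 genes lie higher in all 3, without overlap.

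Each of these 5 calls depended on at least 1 library, while Scn9a stayed called without any 1 of the 6. Without dCas9-SCN9A replicate 3 all 5 were lost, with an adjusted p = 0.0908 for 1600002K03Rik (log2 0.85), adjusted p = 0.0973 for Gm45833 (0.67) and Snora17 (1.21), adjusted p = 0.427 for Gm44386 (1.40) and adjusted p = 0.402 for mt-Co3 (0.62), all by edgeR's quasi-likelihood test. Leaving out dCas9-empty replicate 2 also ended the calls of Snora17 and Gm45833 (adjusted p = 0.0744 and adjusted p = 0.0624). Gm44386 was lost without dCas9-empty replicate 1 or 2 (adjusted p = 0.057 and adjusted p = 0.101), and mt-Co3 without either of those (adjusted p = 0.0731 and adjusted p = 0.141) or dCas9-SCN9A replicate 1 (adjusted p = 0.0791). With 1 library left out the fitted log2 value of 1600002K03Rik ran from 0.84 to 1.06. The range was 0.67 to 0.83 in Gm45833, and 1.21 to 1.63 in Snora17. Gm44386 ranged over 1.28 to 1.78, mt-Co3 over 0.61 to 0.83. Of 18 alternative settings that gave an adjusted p, 1600002K03Rik was called in 17, and Gm45833 and Snora17 in 15 each. Gm44386 was called in 10 and mt-Co3 in 8. Calls of the last 2 also ended with plain library sizes, with a 1 CPM filter and by limma-voom.

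Genes that came next by p did not pass adjustment, and their values are given as measured. On the higher side, F12, coagulation factor XII, stood at 6.41, 6.83 and 5.07 CPM against 10.2, 9.54 and 12.7 (log2 0.82 ± 0.15, SE, edgeR adjusted p = 0.0624). The zinc transporter gene Slc39a7 had a log2 fold change of 0.79, though Gm20427 shares 80.7% of its exon bases, and the ubiquitin ligase gene Rnf25 0.42. Atf3, a transcription factor induced by many stresses, stood at 10.6, 10.3 and 10.4 CPM against 13.4, 13.6 and 17.6 (log2 0.51). The processed pseudogenes Rpl28-ps3 and Gm7618 stood at 0.55 and 1.10. Among better expressed genes without overlap, Gm47135, a pseudogene that shares 11.2% of its exon bases with the microRNA Mir138-1, stood at 0.80 and the noncoding RNA Gm10827 at 0.78. All of these were above their controls in all 3 libraries, beside 6.5% of all tested genes. They were chosen by p or by the lack of overlap in these same libraries, which favours or fixes such separation.

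On the lower side, Megf10, an engulfment receptor, stood at 28.3, 30.3 and 32.6 CPM against 20.6, 23.8 and 21.8 (log2 -0.46 ± 0.08, SE, edgeR adjusted p = 0.0813). Tcf4, a helix-loop-helix transcription factor of neural progenitors, stood at 414, 444 and 496 CPM against 355, 372 and 346 (log2 -0.33, adjusted p = 0.0958). Tnrc6b, a scaffold of microRNA silencing, stood at 99.0, 91.7 and 98.6 against 83.0, 74.0 and 74.3 (log2 -0.32, adjusted p = 0.0906). The aminopeptidase Lnpep (-0.29), the deubiquitinase Usp9x (-0.33), the lysosomal trafficking regulator Lyst (-0.33), the kinase Map3k1 (-0.33) and the kinase-anchoring protein Nbea (-0.28) followed. None of these 8 had groups that overlapped, beside 9.14% of all tested genes that were lower without overlap. The 8 were chosen by p from these same libraries, and that favours separation. Their exon lengths were 7447 to 31361 bases, against a median of 3984 over all tested genes. Abca1, the cholesterol exporter, at -0.38, the ubiquitin ligase adaptor Klhl11 at -0.41 and Plcxd3 at -0.42 had the most negative further values without overlap among genes with at least 10 CPM. Arfgef3, a regulator of vesicle traffic, stood at 173, 156 and 151 CPM against 147, 123 and 118 (-0.31).

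Exon length followed the fold changes over the whole table. The Spearman correlation of log2 fold change with exon length was -0.35 over 14616 genes, as a description, since genes share libraries and are not independent. In the zinc-finger arm it was -0.12. Over 5 classes of about equal size, from shortest to longest, the median log2 fold change was 0.09, 0.03, 0.01, -0.01 and -0.06. In the longest class, with 7088 to 123179 exon bases, an unadjusted p under 0.05 was found for 573 lower genes and 44 higher. In the shortest, with 57 to 1934 bases, 21 were lower and 253 higher. Single libraries within each group also differed in this respect. The correlation of a library's deviation from the mean of all 6 with exon length was 0.12, 0.12 and 0.28 in dCas9-empty and -0.05, -0.21 and -0.24 in dCas9-SCN9A. The groups did not overlap in it, but dCas9-SCN9A replicate 1 lay nearer to 0 than its own group's other libraries.

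**Figure D3:**
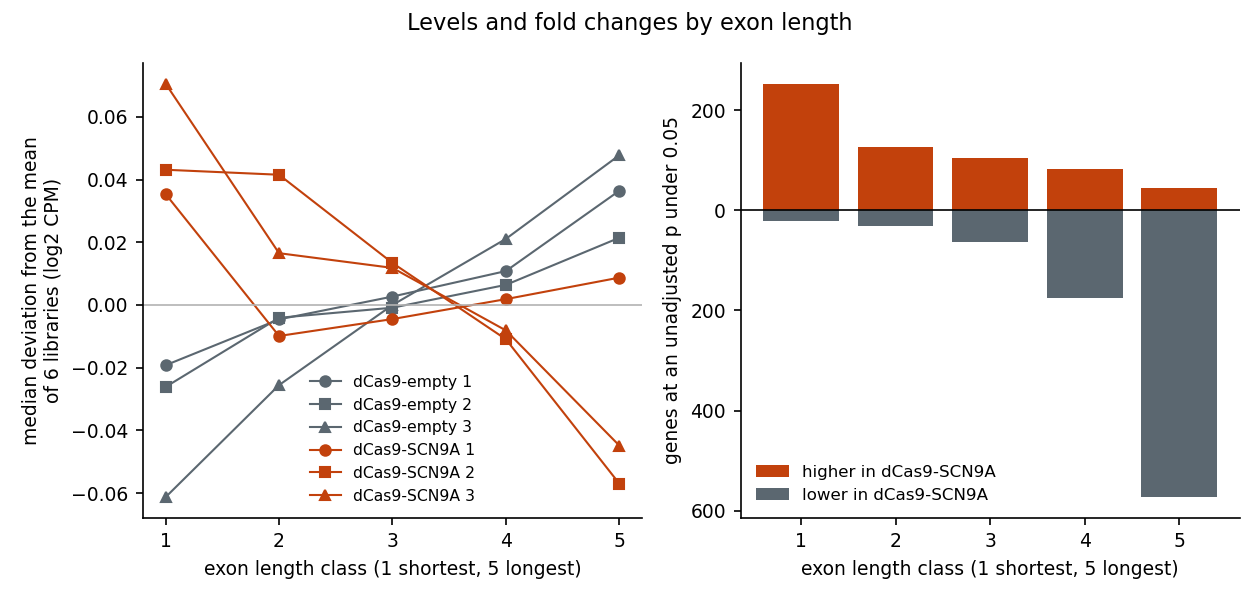
Left, the median deviation of each library from the mean of 6 libraries (log2 CPM) in 5 classes of exon length, with 1 line per library; right, the number of genes at an unadjusted p under 0.05 that were higher (up) or lower (down) in dCas9-SCN9A in each class. In the longest class 573 genes were lower and 44 higher, and in the shortest 21 and 253.

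An offset for exon length, fitted in each library, left 3 genes called: Scn9a (log2 -1.30, adjusted p = 1.05e-08), Gm45833 (0.73, adjusted p = 0.0261) and 1600002K03Rik (0.82, adjusted p = 0.0485, edgeR's quasi-likelihood test for all 3). At an unadjusted p under 0.05 there were then 568 higher (3.88%) and 584 lower (3.99%) genes, and 435 of the 866 lower and 431 of the 610 higher genes were among them. Whether exon length stands for RNA integrity, fragment size or a change in the cells was not tested. Fold changes also varied with GC content, whose relation to exon length was not measured. The correlation of log2 fold change with the GC share of each gene's longest transcript was 0.15. Of 5 classes by GC share the richest held 162 higher and 50 lower genes at an unadjusted p under 0.05, the poorest 84 and 255.

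The long genes were also what a second tool called. DESeq2 on the same 14628 genes gave an adjusted p to 6687 of them and called 22 (0.329%), 3 higher (0.0449%) and 19 lower (0.284%), of which Scn9a was shared with edgeR. Apart from Scn9a the lower genes had small changes, and 18 of the 19 lay in the longest class, with a median exon length of 15051 bases. They include Usp9x at 215, 212 and 202 CPM against 186, 155 and 158, Utrn, a dystrophin relative of the membrane skeleton, at 189, 171 and 166 against 155, 124 and 129 (log2 -0.37), and Usp34, a large deubiquitinase, at 256, 240 and 233 against 220, 181 and 189 (log2 -0.30). The 3 higher calls were Gm10925, an unprocessed pseudogene on chromosome 1 (0.68), Gm10827 (0.78) and mt-Co2 (0.85). Run on all genes with its own filter, DESeq2 gave an adjusted p to only 4483 genes and called 68 (1.52%), 67 lower (1.49%) and 1 higher (0.0223%), Chchd10, which encodes a protein of the mitochondrial intermembrane space. Of those 67, 65 lay in the longest class, and 54 kept an unadjusted edgeR p under 0.05 after the length correction. All 67 had groups that did not overlap, beside 9.14% of all tested genes on the lower side. They were chosen by p from these same libraries, which favours such separation. The share of the longest class among genes given an adjusted p was counted in neither run. In the run on all genes Scn9a received no adjusted p.

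Gene lists were then described by counts and medians, beside all tested genes, whose median log2 fold change was 0.01. Counts are of genes at an unadjusted p under 0.05, a threshold passed by 4.17% of all genes upward and 5.92% downward. No list member other than Snora17 and mt-Co3 was called.

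MicroRNA silencing acts on messenger RNAs through Argonaute proteins, and chromatin repressors act on genes. Among 25 genes of microRNA silencing, 19 were negative (median -0.05), with 4 lower and 0 higher. Besides Tnrc6b these were Ago2, the slicing Argonaute, at 374, 339 and 340 CPM against 317, 262 and 282 (log2 -0.29 ± 0.07, SE), the helicase Ddx6 (-0.20) and the deadenylase scaffold Cnot1 (-0.16). DESeq2 called Tnrc6b and Ago2. The list has a median exon length of 8035 bases, and its median was -0.03 after the length correction. Of 36 genes for KRAB co-repressors and heterochromatin, 29 were negative (median -0.04) with 2 lower, the histone methyltransferase Suv39h2 (-0.21) and the heterochromatin protein gene Cbx5 (-0.14), both with overlapping groups. Of the DNA methylation genes 5 of 6 were negative, with the smallest p at the de novo methyltransferase Dnmt3a, at 182, 171 and 170 CPM against 158, 137 and 148 (-0.24). Their median was -0.14, and -0.04 after the length correction. Among 343 zinc-finger genes whose symbols start with Zfp, 6 were higher and 12 lower, with Zfp715 at -0.33, Zfp169 at -0.50 and the imprinting factor Zfp57 at 0.27.

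Most RNA-processing genes had positive values. Of 47 spliceosome and nuclear RNA processing genes 37 were positive (median 0.05, and 0.06 after the length correction), with 7 higher and 2 lower. Luc7l3, a splicing factor of the U1 particle, stood at 99.4, 95.7 and 118 CPM against 121, 125 and 124 (0.24), Rbm25 at 198, 218 and 248 against 249, 267 and 252 (0.21) and the U1 protein Snrpc at 61.4, 57.3 and 56.7 against 63.1, 71.2 and 65.0 (0.18). In all 3 genes every repressor library exceeded every control library. No other of the 47 was higher without overlap, and 1 was lower. Of all tested genes 6.5% were higher and 9.14% lower without overlap. Prpf8 and Sf3a1, core components of the spliceosome, were the 2 lower members. Of 26 abundant long noncoding RNAs 24 were positive (median 0.16, and 0.14 corrected), with 3 higher: the imprinted Meg3 (0.25) and Rian (0.18) and the snoRNA host Snhg17 (0.27).

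By gene class, the 929 processed pseudogenes had a median log2 fold change of 0.25, with 119 higher and 10 lower at an unadjusted p under 0.05, and 0.11 after the length correction. Antisense genes (260) had a median of 0.19, long intergenic noncoding RNAs (377) of 0.12, and protein-coding genes (12371) of -0.01. Processed pseudogenes are copies of messenger RNAs, so reads can be shared with parent genes. Reads that mapped to several places were 7.99%, 8.28% and 8.35% of listed reads in dCas9-empty and 8.84%, 8.82% and 8.98% in dCas9-SCN9A, without overlap. Their part in these class medians was not tested. The class median stayed positive in every alternative, from 0.11 to 0.40.

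Mitochondrial transcripts are made as long polycistrons on the mitochondrial genome and cut into messenger, ribosomal and transfer RNAs. All 13 messenger RNAs were positive (median 0.33, and 0.19 after the length correction), with 5 higher and 0 lower at an unadjusted p under 0.05. The 5 were mt-Co3, mt-Co2, mt-Atp8, mt-Atp6 and mt-Nd3, each under 30 CPM in every dCas9-empty library, with log2 fold changes of 0.71, 0.85, 0.69, 0.54 and 0.58. mt-Nd4l, also at a low level, stood at 0.43. The 7 abundant messengers had smaller values: mt-Nd4 0.33, mt-Nd6 0.31, mt-Cytb 0.27, mt-Nd2 0.27, mt-Nd1 0.24, mt-Co1 0.21 and mt-Nd5 0.14. For mt-Co1 the libraries read 4759, 6505 and 7917 CPM against 6847, 8231 and 7088, and the groups overlapped. Parts of the mitochondrial genome are copied in the nucleus, and reads of a gene and its copy cannot be assigned with certainty. Gm10925 and Gm28661 on chromosome 1, unprocessed pseudogenes, stood at 37.3, 40.2 and 37.5 CPM against 66.4, 48.4 and 69.4, and at 15.0, 18.5 and 25.0 against 38.2, 25.0 and 36.9. The ribosomal RNAs mt-Rnr1 and mt-Rnr2 stood at 0.47 and 0.49, with unadjusted p of 0.0878 and 0.0588. The mitochondrial share of gene counts was 1.52%, 1.90% and 2.39% in dCas9-empty and 2.14%, 2.46% and 2.39% in dCas9-SCN9A. The lowest value came from dCas9-empty replicate 1, and without it the median of the messengers was 0.19, while without dCas9-empty replicate 3 it was 0.55.

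Nuclear genes of the same organelle had medians near that of all genes. Of 77 nuclear-encoded respiratory chain subunits 58 were positive (median 0.04, with 4 higher and 0 lower), and the median was -0.01 after the length correction. Atp5o stood at 0.29, Ndufb9 at 0.14 and Cox7b at 0.14. Among 77 mitochondrial ribosomal proteins the median was 0.04, with Mrpl33 at 13.2, 12.1 and 13.3 CPM against 16.0, 16.5 and 17.5 (0.37). Genes of cytosolic ribosomal proteins, 95 by symbol, had a median of 0.03 and of -0.02 after the correction. The 7 higher of them include Rpl23a (0.16) and Rpl30 (0.13), while the 2 lower members, Rps6ka2 and Rps6ka3, are kinases that share the start of the symbol. In the list of mitochondrial RNA handling, Ppargc1a, a coactivator of mitochondrial biogenesis, stood at 1.63, 1.76 and 1.92 CPM against 0.71, 1.12 and 1.02 (-0.89), and Trmt10c, a subunit of mitochondrial RNase P, at 0.21.

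Metabolic and stress programmes showed small values of either sign. In hypoxia and glycolysis 32 of 37 genes were negative (median -0.06, and -0.07 after the length correction), yet 0 had an unadjusted p under 0.05. The genes' median deviation from their mean over the 6 libraries was 0.047, 0.15 and -0.053 on the log2 scale in dCas9-empty and 0.024, 0.14 and -0.28 in dCas9-SCN9A. Replicate 3 of dCas9-SCN9A was thus lowest and the other two lay within the control range. Without it the median log2 fold change was 0.05. Of 36 genes of cholesterol and fatty acid synthesis 29 were negative (median -0.05). Of these, 4 were lower and 0 higher, among them the lipogenic enzymes Fasn (-0.13) and Acly (-0.14), and Nsdhl (-0.17). Among 26 NRF2 targets 4 were lower and 0 higher, namely Txnrd1 (-0.17), Gsr (-0.18), Me1 (-0.13) and Abcc1, all without overlap. A further 2 of the 26 were higher without overlap. Of all tested genes 9.14% were lower and 6.5% higher without overlap. The endoplasmic reticulum stress sensor Atf6 stood at -0.15 and Sel1l, of the degradation machinery for misfolded proteins, at -0.11, the 2 lower of 27. Hsf1, the heat shock factor, stood at 0.13 as the 1 member of 22 under that threshold.

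Genes that answer foreign nucleic acid or signalling gave a mixed picture. Of 41 interferon-stimulated genes and sensors 3 were higher and 1 lower (median -0.004). Isg15, a ubiquitin-like modifier, stood at 13.0, 14.6 and 15.1 CPM against 17.5, 15.4 and 19.9 (0.31), the chemokine gene Cxcl10 at 0.31 and the ubiquitin ligase gene Rnf213 at -0.28. In the NF-kB list Tnfaip3, its feedback inhibitor, stood at -0.29 as the 1 of 18. Immediate early genes had 1 higher, Atf3, and 4 lower of 36, among them Fos at 16.4, 14.7 and 17.1 CPM against 13.5, 12.9 and 13.5 (-0.27) and the MAP kinase phosphatase Dusp4 at -0.19, each without overlap. The sign of that list's median (-0.02) was the opposite with plain library sizes. The same held for the interferon, NRF2, calcium channel, sympathoadrenal and fibroblast marker lists.

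Neuronal and pain-related genes complete the account. In the list of neuronal cytoskeleton and synaptic vesicles 7 of 40 were lower and 0 higher (median -0.02). Map1b, a microtubule-associated protein with 15846 exon bases, stood at 2783, 2521 and 2617 CPM against 2458, 2160 and 2263 (-0.20). Map2 stood at -0.17 and the vesicle protein Sv2c at -0.21, and after the length correction the 3 values were -0.10, -0.07 and -0.16. Among 18 partners of NaV1.7, nociceptor and opioid genes 14 were negative (median -0.10, and -0.04 corrected), with 4 lower. Ank3, which anchors sodium channels at the axon initial segment and spans 34838 exon bases, stood at -0.18, and -0.01 after correction. The vesicle sensor Syt2 stood at -0.58 and the delta opioid receptor gene Oprd1 at -0.27, and both kept their size after it. In the sympathoadrenal list the neuroblastoma genes Alk (-0.17) and Mycn (-0.15) were the 2 lower of 30. Of the calcium channels, Cacna1c stood at -0.20 and Cacna1b, the N-type channel of nociceptor terminals, at -0.11.

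The remaining lists gave few genes at an unadjusted p under 0.05. Potassium channels had 1 lower of 22, Kcnma1 (-0.34), ATF4 targets 1 higher, Atf3, and 1 lower of 33, Aldh1l2 (-0.15), p53 targets 1 lower of 28, Zmat3 (-0.18), and lysosomal genes 1 lower of 32, Lamp2 (-0.12). Mitosis genes (40 tested) and collagens (23) had 0. Of 41 DNA replication genes 30 were positive (median 0.04), and the 1 lower was the flap endonuclease gene Fen1, at 3.82, 2.62 and 2.54 CPM against 1.81, 1.80 and 2.41 (-0.57). Other genes share 84.2% of its exon bases, and on reads of the second strand column alone its value was 0.05. Proteins of small nucleolar particles had 1 higher of 22, Nop56 (0.19), and histone genes 2 higher of 14, Hist1h2be (0.88) and Hist3h2a (0.52), both under 5 CPM.

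Among markers of other cell types, fibroblast genes had 2 lower of 9 tested, Fn1 (-0.17) and Pdgfra (-0.31). Their summed level overlapped between the groups (3368 to 3567 against 3205 to 3554 plain CPM). Glial genes had 1 lower of 7, Erbb3 (-0.21), and immune and endothelial genes 0 of 4.

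**Figure D4:**
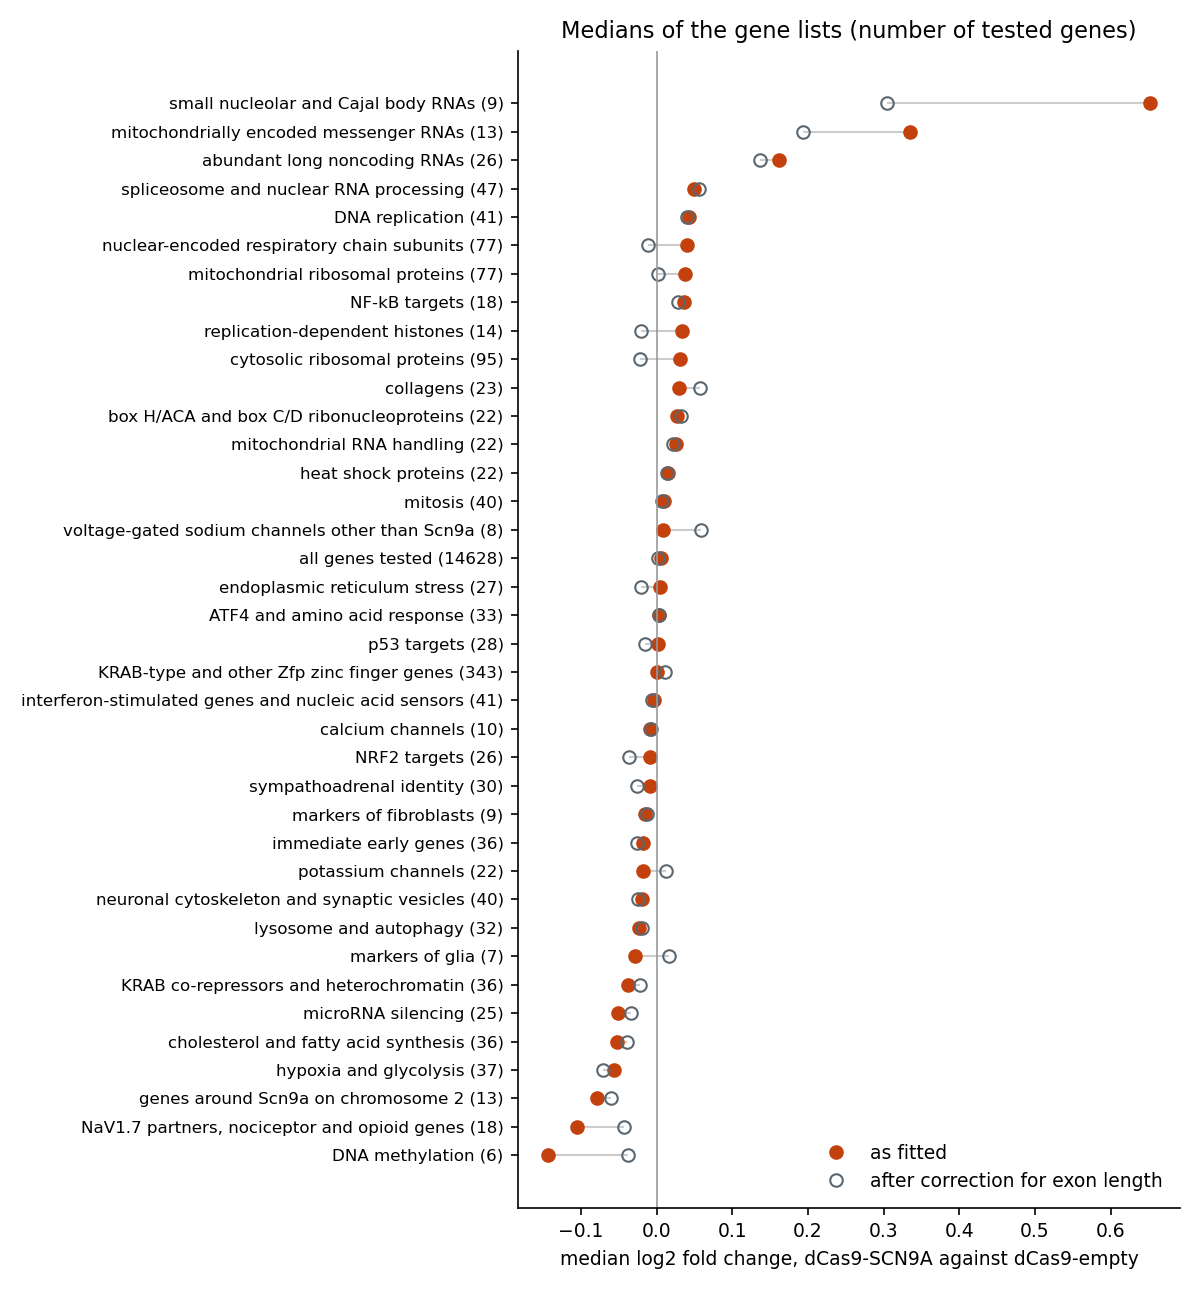
Median log2 fold change (horizontal axis) of each gene list with at least 5 tested members, as fitted (filled) and after the correction for exon length (open), with the number of tested genes in brackets. The median of 13 mitochondrially encoded messenger RNAs moves from 0.33 to 0.19 and that of the 6 DNA methylation genes from -0.14 to -0.04.

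The authors counted plasmid entries beside the mouse genes, and 2 of them, dCCas9 and dNCas9, held reads in every dCas9 library. The labels do not say what each name stands for. The dCCas9 entry stood at 7326, 7795 and 8764 plain CPM in dCas9-empty and 11497, 11202 and 12986 in dCas9-SCN9A, 1.49 times the control mean. The dNCas9 entry stood at 4561, 4834 and 4949 against 3552, 3447 and 4054, 0.77 times the control mean. The number of dNCas9 reads per dCCas9 read was 0.62, 0.62 and 0.56 in dCas9-empty and 0.31, 0.31 and 0.31 in dCas9-SCN9A. Groups did not overlap in any of these 3 measures. An exact two-sided permutation test gave p = 0.1 for each, the smallest that 20 permutations allow, and an adjusted p = 0.2 over 18 measures. Reads of both entries thus separated the groups, and the part of such a difference in the gene changes was not tested. Both entries had 0 reads in the zinc-finger arm. The mCherry entry had 7 reads in dCas9-empty replicate 1, 9 in dCas9-SCN9A replicate 1 and 0 in the other 4 dCas9 libraries.

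**Figure D5:**
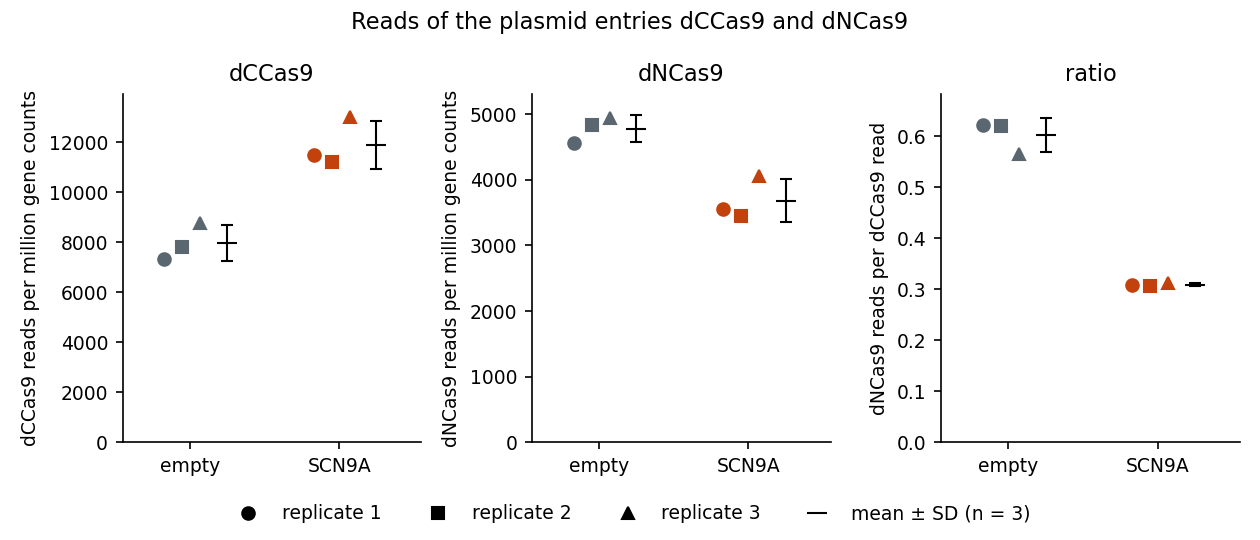
Plain CPM of the plasmid entries dCCas9 and dNCas9, and dNCas9 reads per dCCas9 read (vertical axes, from 0), in each dCas9 library with the mean ± SD of 3. The ratio is 0.56 to 0.62 in dCas9-empty and 0.31 in all dCas9-SCN9A libraries.

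The change of each gene with dCas9 was last set beside that with the zinc finger, an arm with its own controls and 4412097 to 7478956 gene counts per library. The difference of both changes passed in 143 of 15766 genes (0.907%) by edgeR's quasi-likelihood test over all 10 libraries. Scn9a had -1.38 with dCas9 and -1.76 with the zinc finger, and its difference did not pass (0.39 ± 0.15, SE, adjusted p = 0.278). 1600002K03Rik had 0.96 and 1.17, and was called in both arms (adjusted p = 1.43e-05 with the zinc finger by edgeR's quasi-likelihood test), while Atf3 had 0.51 in each. For Gm45833 (0.75 against -0.17) and Snora17 (1.45 against -0.14) the difference itself passed, with adjusted p = 0.00675 and adjusted p = 0.00756. Lyst, at -0.33 with dCas9 and 0.31 with the zinc finger, also differed (adjusted p = 0.000697). For mt-Co3 the difference was 0.94 ± 0.47 (SE) and did not pass.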

How the data were processed

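RNA sequencing counts of 6 Neuro2a libraries, 3 dCas9-SCN9A and 3 dCas9-empty, were analysed, with the 4 zinc-finger arm libraries in the test of the difference between arms. The authors deposited raw counts of reads for each gene, laid out as STAR writes them. The submitters' processing notes name STAR 2.7.3a, bcl2fastq 2.20, DESeq2 and the build GRCm38. They give neither counting settings nor an annotation release. Reads split about evenly over both strand columns, so the unstranded column was used, and a gene cannot be told apart from an antisense partner. Of 55401 identifiers 55141 were found in GENCODE M21. Reads assigned to no gene (25.0% to 28.2% of listed reads in each library) and plasmid entries were kept out of library sizes.

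edgeR 4.0.16 (R 4.3.3, limma 3.58.1) quasi-likelihood tests were robust and two-sided, with TMM scaling, edgeR's count filter and 4 residual degrees of freedom. The biological coefficient of variation was 6.07%. Library totals of the deposited counts were 15356843 to 18984566. Replicate pairs differed by more than sampling noise (chi-square per degree of freedom 3.54 to 7.56). The fit was tested on simulated data. DESeq2 1.42.0 was planned without naming a gene filter. It was run first on all genes and then on the tested genes, so that only the tool differs from the edgeR fit. The second run was taken as the planned one after both were seen. Exon length correction used a smooth fit of log2 values on length in each library. Named genes are those called, the next 8 each way by p, the 8 each way by p with a replicate block, the 8 of smallest DESeq2 adjusted p, the 5 largest each way with at least 10 CPM and no overlap, up to 3 per list, and all tested sodium channels and mitochondrial messengers. Serpina1e, the genes high in replicate 1, Chchd10, Cnot1, Prpf8, Sf3a1, Nsdhl, Abcc1 and Rps6ka3 were chosen after their values were seen. The comparison, its members and its gene lists were chosen with earlier results of these data known. Lists are 39 in number. The same-numbered replicates were not treated as pairs. Some genes that the rule names are not reported here.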

Additional observations from a re-analysis of the deposited data

Results flagged for a closer look

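For 8 named genes the dCas9 change differed from the zinc-finger change in the test of the difference itself (edgeR's quasi-likelihood test over all 10 libraries, adjusted over 15766 genes). Over all genes 143 passed (0.907%), and the share among named genes is not given here. Many named genes were chosen by p or fold change in the dCas9 libraries, which enter this test, and that favours passing. The dCas9 value minus the zinc-finger value was 1.596 for Snora17 (adjusted p = 0.00756), 0.93 for Gm45833 (adjusted p = 0.00675), 1.45 for Slc39a7 (adjusted p = 0.0296) and 0.50 for Luc7l3 (adjusted p = 0.0106). It was -0.63 for Lyst (adjusted p = 0.000697), -0.63 for Map3k1 (adjusted p = 0.01), -0.48 for Aldh1l2 (adjusted p = 0.0157) and -0.38 for Dusp4 (adjusted p = 0.021). All 3 dCas9-SCN9A libraries lay on 1 side of all 3 controls for each of the 8 except Aldh1l2, whose groups overlapped. The same choice favours such separation, which 15.6% of all tested genes had. The zinc-finger arm is shallower, at 4412097 to 7478956 gene counts per library, and Gm20427 shares 80.7% of the exon bases of Slc39a7.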

How the results depend on the processing

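The number of genes called, 6, was 172 without a filter on low counts, 13 on strand column 3, 3 after the exon length correction, 14 without replicate 1 of both groups, 22 by DESeq2, 68 by DESeq2 on all genes, 29 with all 10 libraries in 1 fit, and 1 to 34 with 1 library left out. With plain library sizes, with a 1 CPM filter and by limma-voom, 4 genes were called in each case. The fit without replicate 1 was added, and the choice between both DESeq2 runs made, after seeing the data. Genes at an unadjusted p under 0.05, 1476, were 980 by DESeq2, 981 by DESeq2 on all genes, and 967 to 1791 with 1 library left out. The share of lower genes among them, 58.7%, was 43.5% with plain library sizes, 43.9% (1004 higher, 787 lower) when replicate 3 of dCas9-empty was left out, and 47.4% (718 higher, 648 lower) when replicate 2 of dCas9-SCN9A was left out. Called members of the gene lists, 2, were 1 with DESeq2 size factors, 1 with plain library sizes, 1 with a 1 CPM filter, 1 by limma-voom, 16 without a filter, 5 on strand column 3, 0 after the length correction, 6 by DESeq2 on all genes, 6 with all 10 libraries, and 0 to 8 with 1 library left out. The Spearman correlation with exon length, -0.35, was -0.14 without a filter, -0.23 on strand column 3, -0.23 on strand column 4, -0.020 after the correction, -0.14 by DESeq2 on all genes, and -0.35 to -0.27 with 1 library left out. The median of mitochondrial messenger RNAs was 0.19 to 0.55 with 1 library left out. The cause of these shifts was not tested beyond what each setting's construction shows.

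Same-numbered libraries of both groups had correlations of their deviations of 0.238, 0.161 and 0.0397. Each dCas9-SCN9A library correlated best with the control of its own number, and differently numbered libraries gave -0.226 to 0.101. From the control side, dCas9-empty replicate 3 correlated best with dCas9-SCN9A replicate 2 (0.101). The labels do not say what the numbers mark, so they were not taken as pairs, and whether they are pairs was not tested. With a replicate block 262 genes were called (84 higher, 178 lower), 93 with block and length correction (53 and 40), and list members called were 27 and 19. The length correlation with block and correction was -0.018. With the block the difference from the zinc-finger arm passed in 429 genes instead of 143.

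Values near 0 changed sign. Scn2a was -0.0050 without a filter, -0.029 on strand column 4, -0.040 without replicate 1 of both groups, and -0.042 to 0.046 with 1 library left out. Scn1a was 0.0055 on strand column 3, 0.050 after the length correction, 0.057 with the block added, and -0.12 to 0.14 with 1 library left out. Scn8a was -0.0019 on strand column 3, -0.049 without replicate 1 of both groups, and -0.042 to 0.12 with 1 library left out. Scn4a was -0.022 by limma-voom. With 1 library left out, Scn4a was -0.41 to 0.27, Scn3b -0.091 to 0.024 and Gm43333 -0.27 to 7.15. Fen1 was 0.051 on strand column 4. Depth limits genes of few reads most, such as Gm44386 with 17 to 90.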
